A study of Arabidopsis thaliana with 6 samples.

Results

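The series holds 6 arrays of whole Arabidopsis thaliana seedlings. The transcripts described here read higher in the array titled man than in those titled glc, OMG, DOG and wat. They were chosen by measured values. A probe set, the group of array probes that reads 1 transcript, was a member when its signal in man was at least 80 and at least 1.4 times the highest signal of glc, OMG, DOG and wat. Its signal in glc also had to exceed 0.65 times the lowest of OMG, DOG and wat, and its signal in zer had to lie below 1.5 times that in man. Of 22746 probe sets, 31 met these conditions. Plastid-encoded genes (7 probe sets) and the defensin genes PDF1.2 and PDF1.2b (2 probe sets) were left out by gene, which leaves 22 members. The rule also names STZ, COR15B and the CYP, UGT and GSTU families, but by the names used here these removed 0 probe sets. The zer limit removed 0 as well, and the glc limit removed 9 probe sets that were otherwise past the signal and ratio set for man.

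All 6 groups were Col-0 seedlings at growth stage 1.02, kept at 23 °C under unbroken light on a reduced-strength Murashige and Skoog medium set with 0.8% agar, after 72 h of cold stratification at 4 °C. The groups were man, zer, glc, OMG, DOG and wat, with 1 array each, and only the sample titles tell them apart: every description gives its treatment as none, and no dose or time is stated. The series title speaks of glucose analogs that are not metabolised and of glucose sensing that does not need hexokinase. From it glc is read as glucose and OMG and DOG as analogs. The title man may mean mannitol or mannose, which nothing used here settles, so it is kept as written, as are zer and wat.

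Values are signals on a linear intensity scale made with MAS5, with every array scaled to the same trimmed mean. With 1 array per group there is no replicate, no test and no error on any value, and the precision is limited by the number of arrays. Arrays were unequally far from wat: over the 7555 probe sets with a man signal of at least 80, the SD of the log2 difference from wat was 0.235 for man, 0.343 for zer, 0.418 for glc, 0.19 for OMG and 0.201 for DOG. The 3' to 5' signal ratio of an actin control, which rises when labelled RNA is less complete, was 7.48 in zer and 6.41 in glc, and between 3.46 and 4.66 on the other 4 arrays, with 4.55 in man. Fewer cells of a type and less transcript per cell cannot be told apart in RNA of whole seedlings. Leaf and root markers were read on all arrays. The Rubisco activase gene RCA read 2906.1 in man and 2776.9 in wat, and the light-harvesting gene LHCB4.2 read 1688.7 in man and 1785.2 in wat. Of the root markers, the beta-glucosidase gene PYK10 read 2637.8 in man and 2788.2 in wat. The dimmer root markers did not follow PYK10: EXPA7 read 43.4 in man and 39.0 in wat, and EXPA18 34.7 and 34.5.

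As background, plants deal with reactive or foreign small molecules in steps. Oxidoreductases such as short-chain dehydrogenases and aldo-keto reductases alter the molecule, transferases attach sugar or glutathione to it, and transporters, among them the MATE family (multidrug and toxic compound extrusion), carry the product out of the cytosol. Small heat shock proteins hold damaged proteins in solution, and lectins and secreted proteases are common among defence proteins. Of the 22 members, 14 were named for a single gene, 1 of them (SBT3.5) by a symbol and the rest by locus, and 8 are unnamed here. Among the 14 named genes, 3 encode oxidoreductases and 1 a MATE transporter. This grouping by role was made after the values were seen. How many of all named probe sets have these roles was not counted, so no theme is read from the counts.

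The share of probe sets past the man ratio gives the scale of the choice. Among probe sets with man at 80 or more, 40 of 7555, or 0.529%, were at least 1.4-fold above the highest of glc, OMG, DOG and wat. The same ratio read on other arrays gave 404 of 7718 (5.23%) for glc, 4 of 7609 (0.0526%) for OMG, 7 of 7720 (0.0907%) for DOG and 8 of 7653 (0.105%) for wat, each against the highest of the other 4. Thus man held more such probe sets than OMG, DOG or wat, and fewer than glc.

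**Figure D1:**
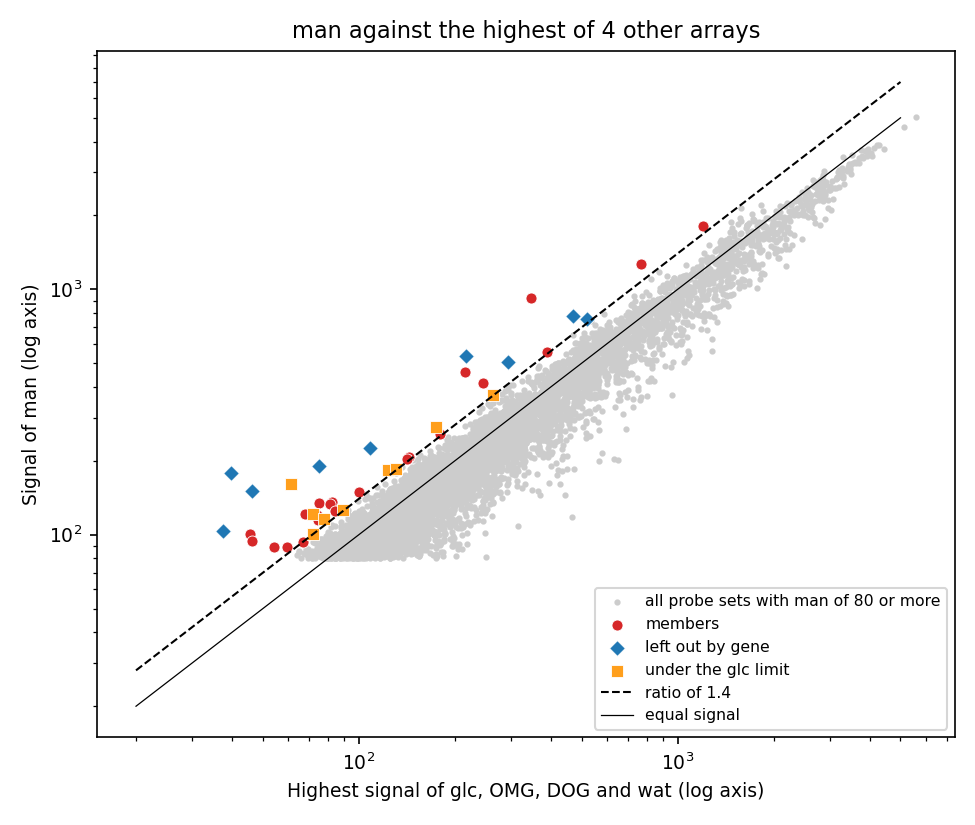
Signal in man (vertical, log axis) against the highest signal of glc, OMG, DOG and wat (horizontal, log axis), 1 point per probe set, for the 7555 probe sets with a man signal of at least 80. The dashed line is the ratio of 1.4; the 22 members (circles), the 9 probe sets left out by gene (diamonds) and the 9 under the glc limit (squares) lie on or above it, and 7 members have a ratio under 1.5.

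Among the members were 3 oxidoreductase genes. AT3G04000, a short-chain dehydrogenase/reductase that reduces reactive aldehydes, read 414.2 in man, 133.3 in zer, 155.7 in glc, 244.4 in OMG, 174.4 in DOG and 237.8 in wat. AT1G60730, an aldo-keto reductase, read 114.7 in man, 69.6 in zer, 47.6 in glc, 50.6 in OMG, 74.6 in DOG and 52.5 in wat. AT1G09500, a reductase related to cinnamyl alcohol dehydrogenase, read 149.2 in man, 43.1 in zer, 62.6 in glc, 96.4 in OMG, 96.2 in DOG and 99.9 in wat. In each of these the man array stood alone at the top, by 1.69-fold, 1.54-fold and 1.49-fold over the highest of glc, OMG, DOG and wat, and glc was the lowest of those 4. They differed in the array next below man: OMG and wat for AT3G04000, DOG for AT1G60730, and OMG, DOG and wat at nearly equal signal for AT1G09500. AT1G09500 met the glc limit by a small margin, at 0.651 times the lowest of OMG, DOG and wat.

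The MATE transporter gene AT3G23550 had the largest ratio among the named members. It read 460.7 in man, 90.4 in zer, 196.1 in glc, 210.6 in OMG, 207.4 in DOG and 215.7 in wat, 2.14-fold above the highest of glc, OMG, DOG and wat. Its signals in OMG, DOG and wat lay within 1.04-fold of each other, and zer lay 5.1-fold below man. The rule chose on the distance of man from glc, OMG, DOG and wat, so its size beside this spread is a description only. Its neighbour AT3G23540 read 82.4 in man, and between 78.2 and 90.3 on the other arrays.

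AT1G10585 encodes a basic helix-loop-helix protein, a class of DNA-binding transcription factors. It read 94.3 in man, 6.6 in zer, 42.8 in glc, 35.6 in OMG, 46.1 in DOG and 33.6 in wat. Its man signal was 2.05-fold above the highest of the 4 arrays glc, OMG, DOG and wat. The zer signal was below the 40th percentile of that array (28.8), under which signals carry no order, so man was at least 3.27-fold above zer.

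Among genes of protein protection and defence, AT3G16530, a lectin of the legume type, was the brightest member. It read 1816.5 in man, 856.8 in zer, 1073.6 in glc, 1204.4 in OMG, 1133.5 in DOG and 1066.0 in wat, and its ratio was 1.51. AT2G29500, a small heat shock protein, read 125.1 in man, 43.8 in zer, 48.8 in glc, 58.5 in OMG, 83.9 in DOG and 74.9 in wat. SBT3.5, a subtilisin-like protease, read 89.2 in man, 40.3 in zer, 37.2 in glc, 42.8 in OMG, 54.0 in DOG and 44.4 in wat. In all 3, man was the highest array and DOG or OMG the next. The spread of OMG, DOG and wat was 1.43-fold for AT2G29500, close to its ratio of 1.49, and 1.26-fold for SBT3.5, against a ratio of 1.65.

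Lipid and signalling genes sat nearer the threshold. AT3G62860, an alpha/beta hydrolase resembling monoacylglycerol lipases, read 207.9 in man, 83.1 in zer, 126.4 in glc, 138.0 in OMG, 143.2 in DOG and 136.8 in wat. AT1G70810, a C2-domain protein of the kind that binds lipids with calcium, read 202.7 in man, 116.1 in zer, 112.8 in glc, 142.0 in OMG, 127.5 in DOG and 124.4 in wat. AT2G20050, whose product joins a protein phosphatase 2C domain with a cyclic nucleotide-binding and a kinase domain, read 257.2 in man, 138.5 in zer, 117.2 in glc, 160.1 in OMG, 179.4 in DOG and 135.1 in wat. These 3 ratios were 1.45, 1.43 and 1.43, and glc was the lowest of glc, OMG, DOG and wat in each.

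Another 3 named members have other or unsure roles. AT1G79950, a DNA helicase of the RAD3 type, read 134.0 in man, 80.4 in zer, 72.4 in glc, 74.1 in OMG, 66.3 in DOG and 81.4 in wat. AT4G36210 read 134.4 in man, 93.9 in zer, 53.1 in glc, 61.2 in OMG, 65.1 in DOG and 75.2 in wat. AT3G05570 read 89.1 in man, 61.8 in zer, 59.4 in glc, 50.5 in OMG, 55.1 in DOG and 57.4 in wat. In AT4G36210 and AT3G05570 zer was the next highest array after man, and in AT1G79950 it lay just under wat.

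The 8 unnamed members include the one with the largest ratio of all. The rule's exclusions by gene rest on gene names, so a member without one could not be checked against them. Probe set 252265_at read 918.6 in man, 45.7 in zer, 155.8 in glc, 346.5 in OMG, 240.3 in DOG and 234.9 in wat, a ratio of 2.65. Its man signal was 20.1-fold that in zer and 5.9-fold that in glc. Probe set 244990_s_at read 100.8 in man, 102.7 in zer, 42.7 in glc, 37.0 in OMG, 42.7 in DOG and 45.6 in wat. It was the 1 member with zer above man, and its suffix marks probes shared by more than 1 transcript. Its membership is in doubt, because the plastid genes left out by the rule read high in zer as well. For example, petD read 190.2 in man, 163.0 in zer, and between 60.2 and 74.8 on the other 4 arrays. Probe set 258002_at read 120.9 in man, 57.3 in zer, 67.7 in glc, 49.7 in OMG, 67.2 in DOG and 53.7 in wat.

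Of the rest of the unnamed members, 247573_at varied most among the arrays it was set against. It read 136.2 in man, 24.6 in zer, 82.4 in glc, 64.8 in OMG, 69.7 in DOG and 41.0 in wat. Its spread over OMG, DOG and wat was 1.7-fold, larger than its ratio of 1.65. Probe set 247949_at read 119.8 in man, 22.9 in zer, 40.8 in glc, 68.1 in OMG, 74.1 in DOG and 50.1 in wat. Probe set 245038_at read 553.4 in man, 78.7 in zer, 198.2 in glc, 338.1 in OMG, 389.4 in DOG and 269.6 in wat. In these 3 both OMG and DOG stood above wat, and zer was the lowest array. Probe set 258791_at, the second brightest member, read 1266.4 in man, 648.4 in zer, 649.7 in glc, 763.5 in OMG, 767.0 in DOG and 643.0 in wat. Probe set 246620_at lay exactly at the threshold ratio of 1.4, reading 93.8 in man, 54.5 in zer, 52.7 in glc, 64.3 in OMG, 67.0 in DOG and 63.4 in wat.

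**Figure D2:**
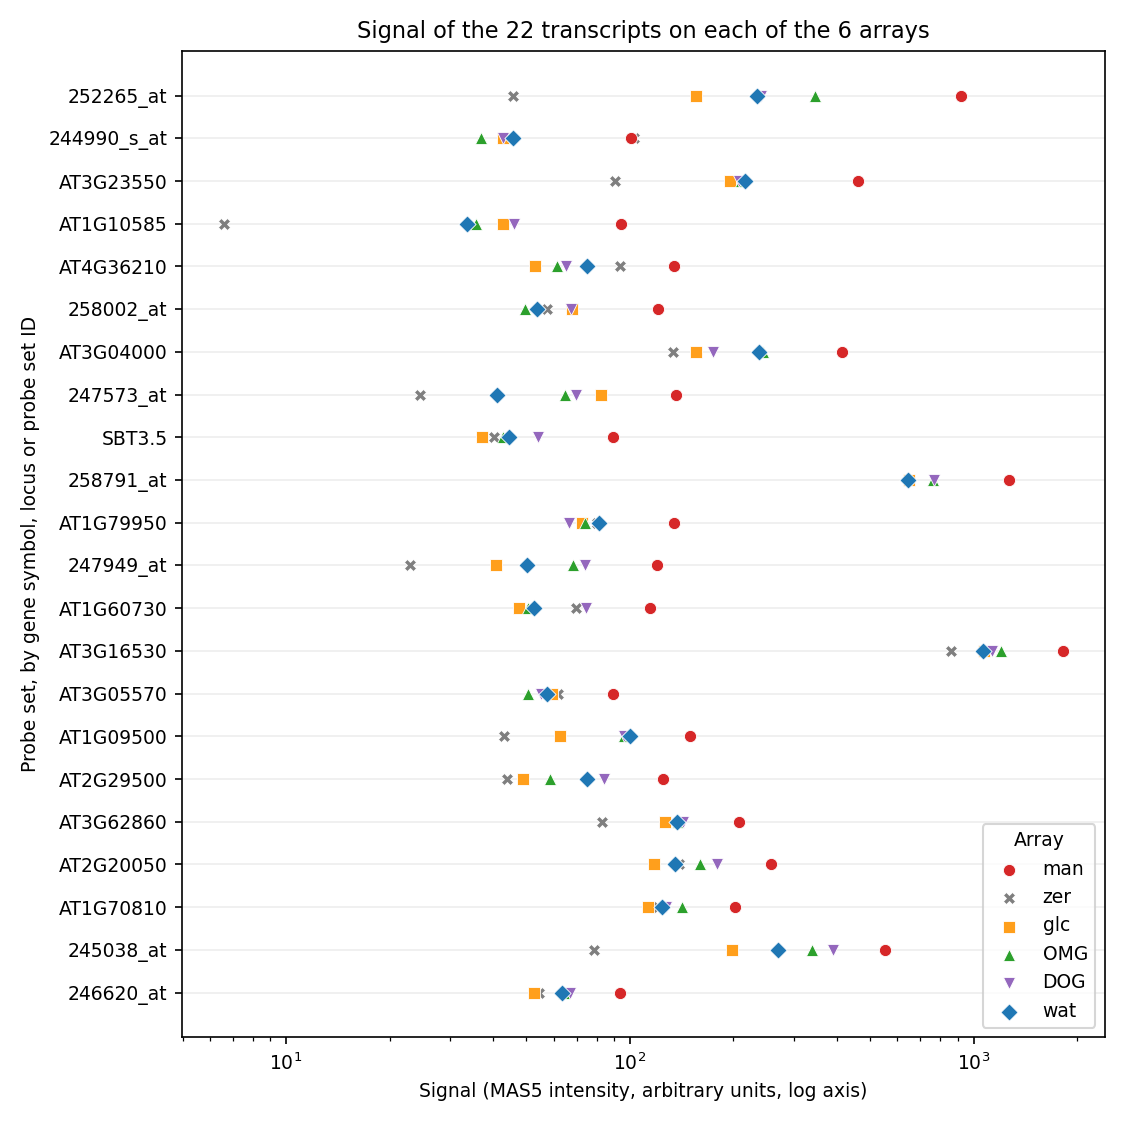
Signal of the 22 members on the 6 arrays (horizontal, log axis; 1 marker per array), with rows ordered from the largest to the smallest ratio of man to the highest of glc, OMG, DOG and wat. The man marker is rightmost in every row except 244990_s_at, where zer read 102.7 against 100.8 in man, and the zer marker lies left of OMG, DOG and wat in 14 rows.

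Over the 22 members the median log2 difference of man from the mean of glc, OMG, DOG and wat was 0.98, with a range of 0.61 to 1.97. The same median over all 7555 probe sets with man at 80 or more was 0.00. These values chose the members and are a description only. At 2-fold above the highest of glc, OMG, DOG and wat there were 4 members, and 7 lay under 1.5-fold. At least 2-fold above wat alone were 10 of the 22, in a comparison that called 0.278% of probe sets with man at 80 or more. The signal was under 150 for 13 members and 400 or more for 6. Just inside the threshold lay 246620_at (ratio 1.4), 245038_at (1.42), AT1G70810 (1.43), AT2G20050 (1.43) and AT3G62860 (1.45). Just outside lay OSM34 (1.39), an osmotin-like protein gene, with 651.0 in man, 313.2 in zer, 251.4 in glc, 422.3 in OMG, 469.5 in DOG and 380.8 in wat. It was followed by AT1G75180 (1.38), AT4G07820 (1.38), and AT2G37750 and 266322_at (1.36 and 1.36).

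The array zer entered the rule's signal conditions only as an upper limit, and most members read low there. The exclusions by gene bear on this, since all 7 plastid-encoded probe sets left out read higher in zer than in OMG, DOG and wat. For example, rps14 read 104.4 in zer and 46.3 in wat, its highest array among OMG, DOG and wat. Of the defensin genes left out, PDF1.2b read 59.2 in zer and 89.5 in wat, and PDF1.2 was under the 40th percentile in zer. The counts below hold for the 22 members alone. In zer, 14 of the 22 members lay below the lowest of OMG, DOG and wat, where 36.9% of probe sets with man at 80 or more did so. With signals raised to the 40th percentile, 7 members were at least 1.4-fold lower in zer, and 4.82% of those probe sets. In the other direction 1 member, 244990_s_at, was at least 1.4-fold above the highest of OMG, DOG and wat, beside 2.12% of those probe sets, and 3.5% of probe sets with zer at 80 or more. The median log2 difference of zer from the mean of OMG, DOG and wat was -0.33 over the members, with quartiles at -1.20 and -0.02, and -0.01 over all 7555. Among the 19 members with zer at or above the 40th percentile, zer was lowest as a share of man for 252265_at (5.0%), 245038_at (14.2%) and AT3G23550 (19.6%). For AT1G10585, 247573_at and 247949_at, under that percentile in zer, man was at least 3.27-fold, 4.73-fold and 4.16-fold above zer. Those with the highest share, after 244990_s_at, were AT4G36210 (69.9%), AT3G05570 (69.4%) and AT1G60730 (60.7%). The zer array also had the highest actin 3' to 5' ratio, with 1.86 for a second actin pair and 1.38 for a GAPDH pair, and the part of these ratios in the low readings was not tested.

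The glc signals of the members were limited by the rule from above and from below, so they are given as a description. The glc signal was below the lowest of OMG, DOG and wat for 14 of the 22 members, beside 37.7% of probe sets with man at 80 or more. At 1.4-fold or more below it were 2 members (252265_at and AT1G09500), beside 6.43%, with the rule itself barring anything lower than 0.65 times that signal. In the other direction 0 of the 22 were 1.4-fold above the highest of OMG, DOG and wat, beside 3.76%, and from this count nothing is read, since the rule holds glc 1.4-fold under man. The median log2 difference of glc from the mean of OMG, DOG and wat was -0.25 over the members and 0.01 over all 7555. The largest value above 0 was 0.53, for 247573_at, and the lowest was -0.79, for 252265_at. Beside its actin ratio given above, glc read 1.76 for the second actin pair, against 1.72 in man, and 1.26 for the GAPDH pair, against 1.35 in man. The part of these ratios here was not tested.

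The analog arrays OMG and DOG share wat as their point of comparison, so their differences from it are given side by side. The median log2 difference from wat over the members was 0.02 in OMG and 0.08 in DOG, against 0.02 and 0.01 over all probe sets with man at 80 or more. In OMG 2 members were at least 1.4-fold above wat (1.07% of those probe sets), 252265_at and 247573_at. In DOG there were 4 (1.46% of those probe sets), AT1G60730, 247573_at, 247949_at and 245038_at. Both arrays lay above wat for 11 members, as for 39.1% of those probe sets, and both below it for 6, as for 33.2%. Of glc, OMG, DOG and wat, DOG was the highest for 10 of the 22 members, wat for 5, OMG for 4 and glc for 3, in arrays that the rule used. Over all 7555 the shares were 20.8% for DOG, 19.6% for wat, 21.4% for OMG and 37.8% for glc. The direct difference of OMG from DOG had a median of -0.10, with 15 of the 22 members lower in OMG than in DOG. Over all 7555 the median was 0.01, and 46.1% were lower in OMG. Doses and times are not stated in the labels, so no difference between the analogs is read from these values.

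How far OMG, DOG and wat lay from each other gives the one measure of spread that these arrays offer, though they are different treatments and no replicates. The highest of the 3 was 1.247 times the lowest at the median over the members, and 1.13 times over all probe sets with man at 80 or more. These sets need not be alike in signal, because the members passed 80 in man, where they are high. AT1G10585, for example, read between 33.6 and 46.1 in OMG, DOG and wat. For AT3G23550, AT1G09500, AT3G62860 and 246620_at this spread was below 1.1-fold. It was 1.4-fold or more for 7 members, and for 2 of these, 247573_at and 245038_at, it was at least as large as the ratio of man to the highest of glc, OMG, DOG and wat.

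**Figure D3:**
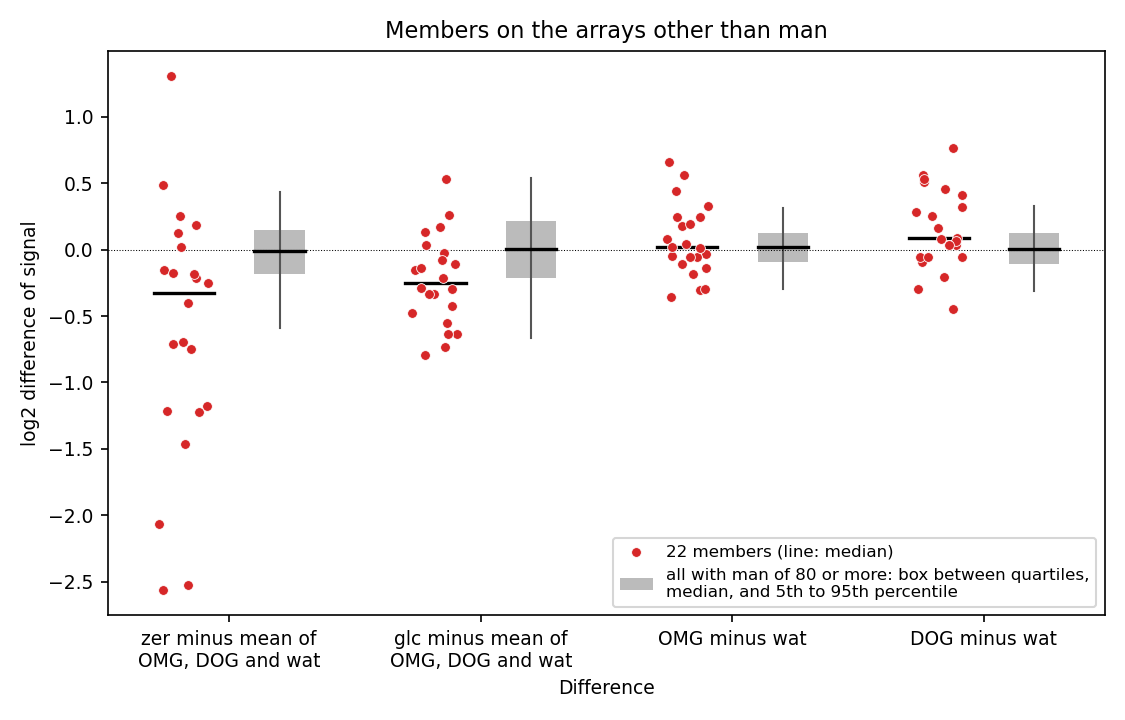
Log2 differences of signal between the arrays other than man (vertical) for 4 differences named on the horizontal axis, with 1 point per member and a line at their median, beside all 7555 probe sets with man at 80 or more (box between the quartiles, line for the median, whisker for the 5th to 95th percentile). The members' medians are -0.33 for zer, -0.25 for glc, 0.02 for OMG and 0.08 for DOG; the zer signals of AT1G10585, 247573_at and 247949_at are below the 40th percentile of that array, so the height of these 3 points carries no order.

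The 14 named members have 28 nearest protein-coding neighbours on the chromosome, of which 13 were read by a probe set of their own. In man, 7 of these 13 reached 80. Of the 7, 0 were at least 1.4-fold above the highest of glc, OMG, DOG and wat, beside 0.529% of all such probe sets. At that share 7 genes are too few for this 0 to be read. The ratios of the 7 ran from 0.643 to 0.989. AT3G04010, next to AT3G04000, read 54.2 in man, 78.7 in zer, 46.0 in glc, 63.0 in OMG, 97.1 in DOG and 36.8 in wat, so the highest array of the pair differed: man for AT3G04000 and DOG for AT3G04010. The neighbour of AT1G09500, AT1G09510, a related reductase, read between 16.9 and 24.9 on all 6 arrays, below the 40th percentile of each.

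Relatives of 9 named members were then read, from family lists drawn up after the members were known. Of 126 listed relatives, 81 had a probe set named for them alone and 24 of these read 80 or more in man. Of the 24, 0 were at least 1.4-fold above the highest of glc, OMG, DOG and wat, beside 0.529% of all probe sets with man at 80 or more, so the count says nothing particular about relatives. Among 9 MATE transporter genes the ratio ran from 0.713 to 1.23, with AT1G66760 the highest at 287.8 in man, 131.8 in zer, 88.8 in glc, 226.6 in OMG, 202.9 in DOG and 234.1 in wat. Among 7 monoacylglycerol lipase-like genes it ran from 0.734 to 1.29. AT2G39400 was the highest of those, with 438.2 in man, 129.5 in zer, 241.0 in glc, 336.3 in OMG, 338.6 in DOG and 321.5 in wat. The aldo-keto reductase gene ATB2, beside the member AT1G60730 in its family, read 323.7 in man, 403.4 in zer, 393.7 in glc, 337.5 in OMG, 329.0 in DOG and 338.2 in wat, lowest in man. Among the short-chain dehydrogenases, AT4G13180 had the highest ratio, 1.12, with 461.8 in man and 412.7 in wat. No relative of the small heat shock protein, lectin or SBT3.5 members reached 80 in man, out of 6, 3 and 15 measured. Of the 57 relatives under 80 in man, 1 was at least 1.4-fold above the highest of glc, OMG, DOG and wat once those were raised to the 40th percentile. It was the small heat shock protein gene AT1G53540, at 49.2 in man and between 11.1 (zer) and 23.0 (wat) on the other arrays, and so at least 1.72-fold higher in man.

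Pathway lists for stress, hormones, nutrients and tissues were read in the same way. They held 249 entries in 19 lists, of which 36 were read by a probe set of their own, and 0 of the 36 were members. The rule itself barred some of the 36: STZ and COR15B by name, and others by its man signal minimum or its glc limit. Nothing is therefore read from this 0. Of the 36, 1 was at least 1.4-fold above the highest of glc, OMG, DOG and wat. Among probe sets with man at 80 or more 0.529% were, but the 36 were not held to that signal, so the shares are not alike. The gene was MGL, methionine gamma-lyase of the sugar starvation list, which failed the glc limit. MGL read 182.7 in man, 80.8 in zer, 41.1 in glc, 101.2 in OMG, 80.7 in DOG and 123.6 in wat. For abscisic acid, osmotic and cold stress, 5 of 37 genes were measured and their median log2 difference of man from the mean of glc, OMG, DOG and wat was 0.09. COR47, a dehydrin gene of that list, read 990.3 in man, 891.7 in zer, 856.7 in glc, 893.2 in OMG, 997.0 in DOG and 899.8 in wat, so man and DOG stood together. In the detoxification list 1 of 7 genes was measured: AER, an alkenal reductase that acts on reactive carbonyls, with 1350.2 in man, 646.7 in zer, 677.8 in glc, 1109.6 in OMG, 1236.8 in DOG and 1153.7 in wat. Jasmonate had 2 of 30 genes measured and a median of 0.16, and phosphate starvation 1 of 16 and -0.69. These list medians used signals raised to the 40th percentile. JMT of the jasmonate list, and COR15A and LEA4-5 of the cold stress list, lay under it in man, glc, OMG, DOG and wat. They enter their medians but give no level. The 1 of 11 heat shock genes measured, HSP22.0, was below the 40th percentile in man and gives no level there. The sugar starvation list had 10 of 23 measured and a median of 0.60, a value that the low glc signals of those genes enter. Medians of the other stress, hormone and nutrient lists with a measured gene ran from -0.45 (glucosinolates, 1 of 17) to 0.61 (touch and calcium, 2 of 12). In the touch and calcium list, CML41 read 143.9 in man, 145.1 in DOG and 68.7 in glc. STZ read 198.8 in man, 172.3 in DOG and 87.9 in glc, so low glc signals enter that median too. The leaf markers (2 of 7) had a median of -0.07 and the root markers (3 of 5) one of -0.13, and 0 seed and 0 flower markers were measured.

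The 9 probe sets past the man ratio that failed the glc limit differ from the members by that limit alone. AT2G38240, an oxygenase gene, read 161.2 in man, 28.8 in zer, 25.7 in glc, 51.3 in OMG, 55.6 in DOG and 61.1 in wat, 2.64-fold above the highest of glc, OMG, DOG and wat. HIS1-3, a linker histone gene, read 126.5 in man, 73.3 in zer, 21.9 in glc, 89.2 in OMG, 65.6 in DOG and 78.1 in wat. In both, man was the highest array and glc the lowest, an order that some members share, such as AT1G70810 and SBT3.5.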

How the data were processed

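Whole seedlings of 6 groups were hybridised to 1 oligonucleotide array each. The deposited values are probe set intensity on a linear scale. MAS5 is the one tool in the submitters' processing notes, and neither a version nor a scaling target is recorded there. The deposited columns had equal means after trimming 2% at each end, so the arrays had been scaled alike, which hides a change shared by most transcripts. The 64 control probe sets were left out of 22810.

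Members, gene lists and family lists were chosen with earlier results of these data known. Gene names came from the platform annotation and were brought up to date with a table of assembly TAIR10.1, used only for names, neighbours and plastid genes: 13513 probe sets had 1 gene, 13436 of them matched to that table, 503 had several and 8730 none. Every named member is given, grouped by role. Of several probe sets for 1 gene, the brightest was read. A signal under the 40th percentile of its array gives a bound. Python 3.11.15, pandas 2.3.3 and numpy 2.4.6 were used, and the rule was checked on simulated data. With 1 array per group no test was run.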

Additional observations from a re-analysis of the deposited data

How the results depend on the processing

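With 1 array per group no replicate could be left out, and no paired analysis was possible because each group has 1 array. The number of members depended on the thresholds: there were 83 at the looser of the alternative ratios (holding all 22) and 4 at a ratio of 2 (all among the 22). With a man signal of at least 50 there were 33 (holding all 22), and with at least 150 there were 9 (all among the 22). Scaling to equal medians gave 25 members, 21 of them among the 22, and quantile normalization 20, all among the 22. AT1G09500 was lost under both scalings, and 245038_at was also lost after quantile normalization. Leaving out glc, OMG, DOG or wat from the arrays that man is set against, an alternative chosen after seeing the data, gave 24, 31, 32 and 30 members, holding 22, 22, 21 and 19 of the 22. The medians over the members of man, zer and glc kept their sign under each setting tried and moved by at most 0.1 on the log2 scale, and the counts of members 1.4-fold above OMG, DOG and wat in zer (1) and glc (0) did not change with scaling or with either alternative fold. A search of promoters for motifs was planned and was not run. The medians of OMG and DOG were not run under other settings.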
